A study of Mus musculus with 44 samples.

Results

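Bleomycin hydrolase and 9 antioxidant genes were followed in mouse skin during and after bleomycin injury. The 10 genes were chosen by name from 43411 genes in the deposited table: Blmh, Nqo1, Hmox1, Gclc, Gclm, Srxn1, Txnrd1, Gpx3, Sod2 and Sod3. All 10 were found by their Ensembl identifiers, and all 10 passed the filter on low values that 17037 genes passed. The study injected the back skin of female C57Bl/6 wild-type mice, 8 weeks old at the start, under the skin once a day with 100 µL of saline or of bleomycin, as a model of the skin fibrosis of systemic sclerosis. The labels give the bleomycin at 1 U/mL, but the sources used here differ on its concentration, so the dose is uncertain. Skin of 10 saline mice, 10 mice after 2 weeks of bleomycin and 10 mice after 4 weeks was sequenced, with 6 mice 6 weeks and 8 mice 10 weeks after a 4-week course had ended. Each replicate is a separate mouse. The week at which the saline mice were taken is not given in the sources used here, so time since the start and the mouse's age cannot be told apart from treatment. A part of each skin biopsy was sequenced with all its cell types together, so a lower value can mean fewer cells of a type or less RNA in each cell, and these cannot be told apart.

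Bleomycin is a glycopeptide that binds iron and oxygen and cuts DNA through the radicals it forms. Bleomycin hydrolase, the cysteine protease encoded by Blmh, removes an amide group from the drug and so inactivates it, and in skin it also takes part in the last steps of filaggrin breakdown in the epidermis. Oxidants and electrophiles free the transcription factor NRF2 (Nfe2l2) from its inhibitor KEAP1, after which NRF2 pairs with a small MAF protein on antioxidant response elements near genes such as Nqo1, Hmox1, Gclc, Gclm, Srxn1 and Txnrd1. The remaining genes act elsewhere in oxidant defence. Gpx3 encodes the secreted glutathione peroxidase, Sod2 the superoxide dismutase of mitochondria and Sod3 the extracellular one.

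Short stretches around the start sites are shown because 3 of the NRF2 target genes (Gclc, Gclm and Txnrd1) moved together and away from Nqo1. RefSeq promoter windows of GRCm38.p6, from 250 bases before to 50 bases after a start site, were matched by symbol for 7 of the 10 genes, in 9 windows. No window was matched for Hmox1, Gclc or Sod3. Both strands were searched for the core of the antioxidant response element, TGACNNNGC. Each line below gives the strand of the gene, 5′ to 3′, with the match in capitals. The first 4 lines hold the antioxidant core, and the last pair hold the AP-1 letters in the Srxn1 window.
Blmh, chr11:76945670-76945698, + strand: ccgatggcgcTGACTCAGCaacgcgaggg
Gclm, chr3:122245413-122245441, + strand: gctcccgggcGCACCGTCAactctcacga
Txnrd1, chr10:82859104-82859132, + strand: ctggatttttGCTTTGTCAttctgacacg
Srxn1, chr2:152105542-152105570, + strand: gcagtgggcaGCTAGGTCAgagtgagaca
Srxn1, chr2:152105412-152105438, + strand: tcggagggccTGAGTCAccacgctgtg
Srxn1, chr2:152105469-152105495, + strand: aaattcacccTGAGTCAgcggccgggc

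The core TGACNNNGC was present in 12.4% of the 32851 promoter windows of the same length. In Blmh it lay 25 to 33 bases after the start site and there spelled TGACTCAGC, the longer form bound by NRF2 family and small MAF proteins, which occurs in 0.454% of windows and also contains the AP-1 letters TGACTCA. In Gclm the core lay at -134 to -126 from the start, in 1 of 3 Txnrd1 windows at -92 to -84, and in Srxn1 at 29 to 37, each time on the opposite strand. The AP-1 letters TGACTCA, found in 5.2% of windows, occurred at 2 places in Srxn1, -102 to -96 and -45 to -39 from the start, also on the opposite strand. The windows of Nqo1, Gpx3 and Sod2 did not contain the core. Sequence outside the windows was not searched, so elements farther from a start site are not covered. The core and the longer form were searched with TGAC only, so the TGAGTCAgc in the last Srxn1 line was counted as neither. A match is a description of the letters only.

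Sequencing depth was between 8509094 and 15285577 gene-assigned reads in each mouse. Values are normalized counts, that is reads divided by the size factor of the mouse. A gene is called changed when its adjusted p is below 0.05 and its fold change exceeds 1.5, which is 0.58 on the log2 scale (log2 of the normalized count plus a pseudocount of 1), and the words rose and fell are used for an adjusted p below 0.05 with no fold threshold. Saline mouse 1 and 2-week mouse 2 lay far from their group mates for several of the 10 genes, and their values are given where they matter. Per kilobase of exon, the mean normalized count in saline skin was highest for Gpx3 at 2787, followed by Hmox1 at 550.2, Blmh at 348, Sod3 at 273 and Txnrd1 at 203. Gclc followed at 157, Srxn1 at 149, Sod2 at 107, Nqo1 at 100.3 and Gclm at 78.1.

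Expression of Blmh, the gene for the enzyme that inactivates bleomycin, did not pass the test at 2 weeks, fell at 4 weeks and was lower than in saline at both recovery times. In saline skin its normalized count ranged from 1421 to 2715, with a median of 1925. During treatment it ranged from 1209.8 to 3769, with a median of 1968, at 2 weeks and from 1319.5 to 1935, with a median of 1427, at 4 weeks. In recovery it ranged from 1088 to 1576, with a median of 1278, at 6 weeks and from 1176 to 1609, with a median of 1498, at 10 weeks. The 2-week mice were thus the most scattered, with 1 mouse above and 2 below every saline mouse, while all 14 recovery mice lay below the saline median and the ranges still overlapped. Group means were 2052 ± 387 (SD, n = 10) in saline and 1306 ± 195 (SD, n = 6) at 6 weeks of recovery. The log2 difference from saline was -0.05 ± 0.13 (SE), adjusted p = 0.786, at 2 weeks and -0.45 ± 0.13 (SE), adjusted p = 0.00487, at 4 weeks. It was -0.64 ± 0.15 (SE), adjusted p = 0.00388, at 6 weeks of recovery, the only one of the 4 past 1.5 fold, and -0.49 ± 0.14 (SE), adjusted p = 0.023, at 10 weeks. From 4 weeks of treatment to 6 weeks of recovery it differed by -0.19 (95% interval -0.48 to 0.10, adjusted p = 0.359), which did not pass. The 10-week decrease did not pass without 10-week mouse 4 (adjusted p = 0.0601) or without 10-week mouse 7 (adjusted p = 0.0603). The gene lies on chromosome 11 from 76924809 to 76987379 on the plus strand (mm10).

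Nqo1, which encodes the quinone reductase widely used as a readout of NRF2 activity, was the only one of the 10 genes to rise in bleomycin-treated skin by the limma test, and it was higher than saline in every group. Its normalized count in saline skin ranged from 117 to 179, with a median of 154. It ranged from 177 to 323, with a median of 239.9, at 2 weeks and from 268 to 367, with a median of 314, at 4 weeks. After the injections ended it ranged from 179.9 to 232, with a median of 206, at 6 weeks and from 162 to 241, with a median of 192, at 10 weeks. At 2 weeks 9 of 10 mice exceeded every saline mouse, the exception being 2-week mouse 2 at 177. No 4-week mouse and no 6-week recovery mouse overlapped the saline range, and at 10 weeks 5 of 8 mice lay above it. The mean rose from 156 ± 19.6 (SD, n = 10) in saline to 309.6 ± 33.2 (SD, n = 10) at 4 weeks, a 1.99-fold difference. On the log2 scale the differences were 0.63 ± 0.09 (SE), adjusted p = 1.26e-07, at 2 weeks and 0.99 ± 0.09 (SE), adjusted p = 1.25e-12, at 4 weeks. In recovery they were 0.41 ± 0.10 (SE), adjusted p = 0.00605, at 6 weeks and 0.33 ± 0.09 (SE), adjusted p = 0.0238, at 10 weeks, both under 1.5 fold. Leaving out 10-week mouse 2, 3 or 7 raised the 10-week adjusted p to 0.0587, 0.0629 and 0.0532. The gene lies on chromosome 8 from 107388225 to 107403206 on the minus strand.

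Hmox1, which encodes the heme oxygenase that breaks down heme to biliverdin, iron and carbon monoxide, was high in a few treated mice and did not pass the test against saline. Its normalized count ranged from 780.1 to 1208, with a median of 972, in saline skin. It ranged from 852 to 3167, with a median of 1131, at 2 weeks and from 987 to 2624, with a median of 1184, at 4 weeks. The recovery mice ranged from 570.1 to 936, with a median of 795, at 6 weeks and from 593 to 1305, with a median of 812, at 10 weeks. The treated ranges were stretched upward by 2-week mouse 2 and 4-week mouse 9, and the next highest mice were at 1220.4 and 1309. All 10 of the 4-week mice lay above the saline median and 5 above every saline mouse. The log2 differences were 0.30 ± 0.17 (SE), adjusted p = 0.163, at 2 weeks and 0.39 ± 0.17 (SE), adjusted p = 0.0663, at 4 weeks. Without 2-week mouse 2 the 2-week difference was 0.14 (adjusted p = 0.439), and without 4-week mouse 9 the 4-week difference was 0.27 (adjusted p = 0.185). The 4-week difference did pass by edgeR at 0.45 (adjusted p = 0.0446), by DESeq2 at 0.43 (adjusted p = 0.0441) and without 2-week mouse 2 at 0.39 (adjusted p = 0.0187). In recovery the differences were -0.36 (95% interval -0.74 to 0.02, adjusted p = 0.239) and -0.19 (95% interval -0.54 to 0.15, adjusted p = 0.626). The 6-week recovery mice all lay below every 4-week mouse, and the fall between them was called at -0.74 ± 0.19 (SE), adjusted p = 0.00336.

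**Figure D1:**
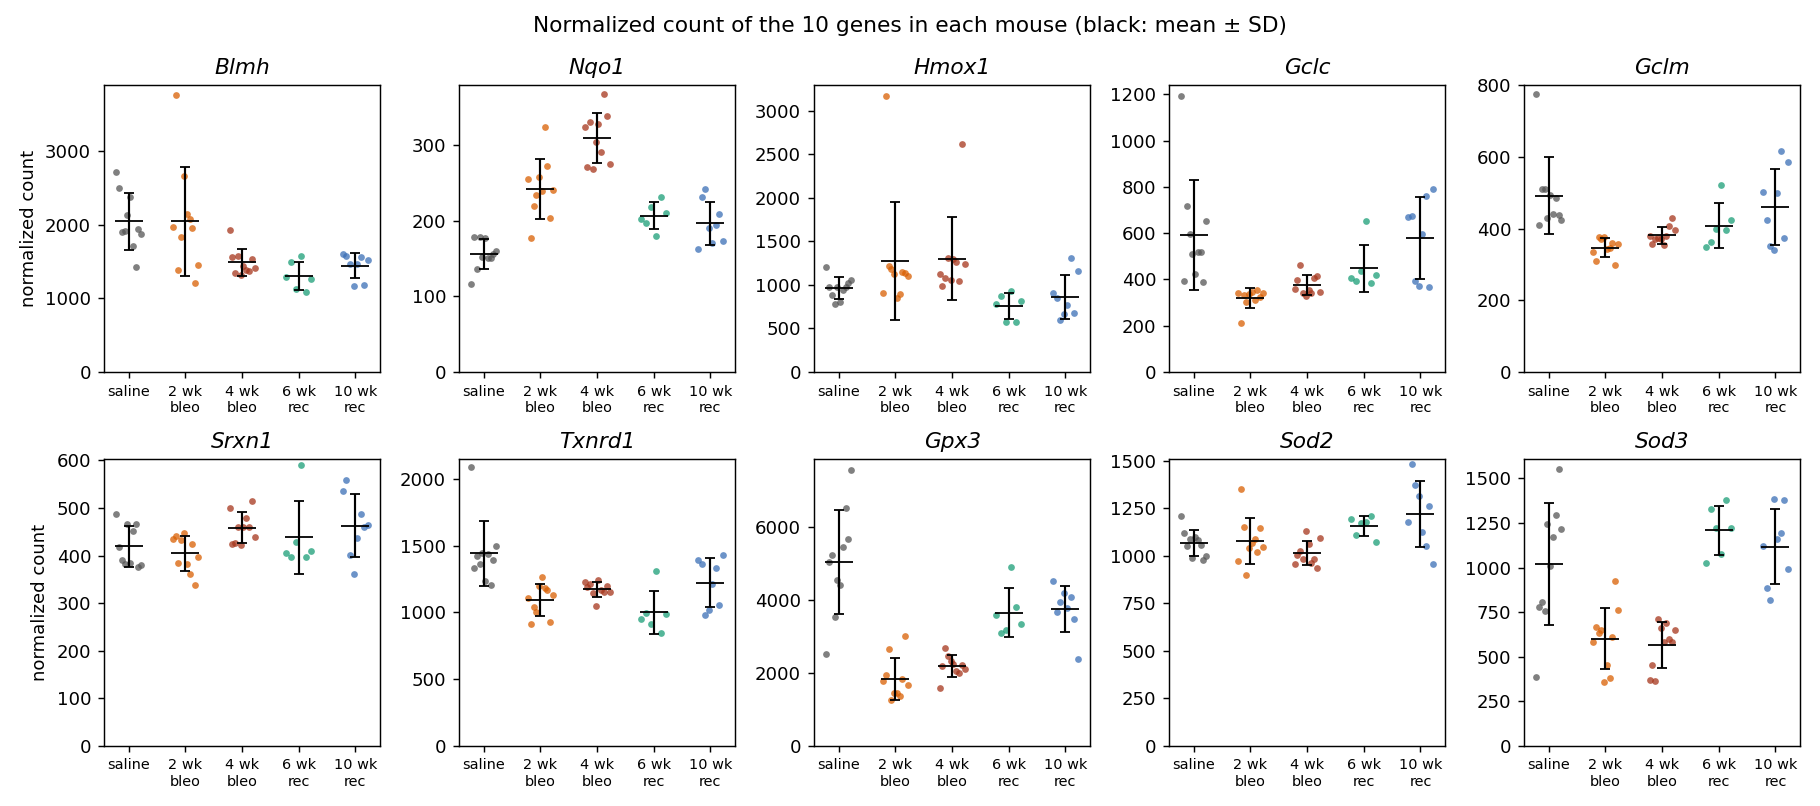
Normalized count (linear axis from 0) of each of the 10 genes in every mouse, one point per mouse, with black bars for the mean ± SD of each group. Nqo1 rises from a saline mean of 156 to 309.6 at 4 weeks, Gpx3 falls from 5053 to 1841 at 2 weeks, and the high points of saline mouse 1 stand out in Gclc, Gclm and Txnrd1.

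Both subunits of glutamate-cysteine ligase, the enzyme of the rate-limiting step of glutathione synthesis, fell in bleomycin-treated skin, and so did Txnrd1, the cytosolic thioredoxin reductase. The catalytic subunit Gclc ranged from 388 to 1191, with a median of 517, in saline skin. It ranged from 211 to 354, with a median of 335, at 2 weeks and from 330.3 to 462, with a median of 357, at 4 weeks. In recovery Gclc ranged from 384 to 653, with a median of 413, at 6 weeks and from 367 to 792, with a median of 632, at 10 weeks. Every 2-week mouse lay below every saline mouse, 6 of 10 did so at 4 weeks, and in recovery the ranges overlapped widely. The log2 differences were -0.81 ± 0.15 (SE), adjusted p = 2.68e-05, at 2 weeks and -0.58 ± 0.15 (SE), adjusted p = 0.002, at 4 weeks, the latter just under 1.5 fold. Saline mouse 1 had the highest Gclc of all 44 mice at 1191, and without it the values became -0.69 (adjusted p = 5.33e-05) and -0.46 (adjusted p = 0.00607). The 4-week difference was past 1.5 fold by edgeR at -0.63 (adjusted p = 0.0009) and by DESeq2 at -0.65 (adjusted p = 0.000169). Leaving out single mice changed the 4-week limma call of Gclc in 10 of 44 fits. In recovery the differences were -0.34 (95% interval -0.68 to -0.00, adjusted p = 0.214) at 6 weeks and -0.02 (95% interval -0.33 to 0.30, adjusted p = 0.977) at 10 weeks.

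The modifier subunit Gclm, which raises the affinity of the ligase for glutamate, ranged from 409 to 776, with a median of 463, in saline skin. Gclm ranged from 298 to 376, with a median of 352, at 2 weeks and from 353 to 428, with a median of 376, at 4 weeks. The recovery groups ranged from 347 to 521, with a median of 397, at 6 weeks and from 339 to 615, with a median of 461, at 10 weeks. As with Gclc, no 2-week mouse reached the saline range, and 9 of 10 of the 4-week mice lay below it. The changes were smaller than 1.5 fold, at -0.48 ± 0.10 (SE), adjusted p = 7.6e-05, at 2 weeks and -0.34 ± 0.10 (SE), adjusted p = 0.0037, at 4 weeks. Neither recovery difference passed, with -0.26 (95% interval -0.47 to -0.04, adjusted p = 0.133) at 6 weeks and -0.10 (95% interval -0.30 to 0.10, adjusted p = 0.668) at 10 weeks. Exons of Gclm share 296 bases with Gm17494 on the opposite strand and 244 bases with the pseudogene Gm6061 on the same strand, which have mean normalized counts of 4.96 and 4.29. How shared reads were assigned is not given in the sources used here.

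Txnrd1 keeps thioredoxin reduced with NADPH. It ranged from 1205 to 2088, with a median of 1406, in saline skin. At 2 weeks the range was 910.4 to 1261, with a median of 1119, and at 4 weeks it was 1047 to 1242, with a median of 1176. In recovery it was 843 to 1307, with a median of 966, at 6 weeks and 979 to 1425, with a median of 1273, at 10 weeks. The treated mice lay at or below the low edge of saline skin, with 9 of 10 under every saline mouse at 2 weeks and 7 of 10 at 4 weeks, and 5 of 6 mice did so at 6 weeks of recovery. The log2 differences were -0.39 ± 0.08 (SE), adjusted p = 0.000124, at 2 weeks and -0.28 ± 0.08 (SE), adjusted p = 0.00451, at 4 weeks. The lowest mean of Txnrd1 was in the 6-week recovery mice, with a difference of -0.53 ± 0.09 (SE), adjusted p = 0.000185. At 10 weeks it was -0.24 (95% interval -0.40 to -0.07, adjusted p = 0.0879). Leaving out 6-week recovery mouse 4, which had the highest Txnrd1 of its group at 1307, moved the 6-week difference to -0.61, past 1.5 fold.

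Srxn1, which encodes sulfiredoxin, the enzyme that repairs over-oxidized peroxiredoxins, did not pass the test in any comparison. Its group means lay between 405 ± 37.1 (SD, n = 10) at 2 weeks and 463 ± 65.5 (SD, n = 8) at 10 weeks of recovery, beside 419.8 ± 43.1 (SD, n = 10) in saline. The differences from saline were -0.05 (95% interval -0.19 to 0.09, adjusted p = 0.62) at 2 weeks and 0.13 (95% interval -0.01 to 0.27, adjusted p = 0.155) at 4 weeks. In recovery they were 0.05 (95% interval -0.11 to 0.22, adjusted p = 0.753) at 6 weeks and 0.14 (95% interval -0.02 to 0.29, adjusted p = 0.353) at 10 weeks. The largest value in the 6-week recovery group was 591, in mouse 4, and the other 5 mice of that group lay between 397 and 428 normalized counts. All of these intervals lie within 1.5 fold in either direction.

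The largest change of the 10 genes was in Gpx3, the secreted glutathione peroxidase that removes hydroperoxides outside cells. In saline skin Gpx3 ranged from 2511 to 7569.5, with a median of 5144. It ranged from 1248 to 3011, with a median of 1722, at 2 weeks and from 1589 to 2684, with a median of 2212, at 4 weeks. In recovery it ranged from 3105 to 4910.0, with a median of 3465, at 6 weeks and from 2383 to 4528, with a median of 3857, at 10 weeks. The saline range reached down into the treated range only through saline mouse 1 at 2511, since the next lowest saline mouse was at 3529.7. Of the treated mice 8 of 10 at 2 weeks and 9 of 10 at 4 weeks lay below every saline mouse. The mean fell from 5053 ± 1435 (SD, n = 10) to 1841 ± 573 (SD, n = 10) at 2 weeks, and the log2 difference was -1.45 ± 0.15 (SE), adjusted p = 7.77e-11. At 4 weeks it was -1.16 ± 0.15 (SE), adjusted p = 2.26e-08. All 14 recovery mice lay below the saline median, but the differences of -0.43 (95% interval -0.76 to -0.09, adjusted p = 0.103) at 6 weeks and -0.39 (95% interval -0.70 to -0.08, adjusted p = 0.136) at 10 weeks did not pass. Without saline mouse 1 both passed, at -0.53 (adjusted p = 0.0284) and -0.50 (adjusted p = 0.0282), so that 1 library decided these calls.

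Sod3, which removes superoxide in the extracellular matrix, fell with Gpx3 during treatment and was back in the saline range afterwards. It ranged from 385 to 1551, with a median of 1088, in saline skin. Sod3 ranged from 356 to 925, with a median of 623, at 2 weeks and from 363 to 709.7, with a median of 592, at 4 weeks. After treatment it ranged from 1026 to 1381, with a median of 1223, at 6 weeks and from 819 to 1385, with a median of 1139, at 10 weeks. All 20 treated mice lay below the saline median, although saline mouse 1, at 385, lay within their range. The log2 differences were -0.73 ± 0.17 (SE), adjusted p = 0.000947, at 2 weeks and -0.80 ± 0.17 (SE), adjusted p = 0.000314, at 4 weeks. In recovery the differences were 0.33 (95% interval -0.07 to 0.72, adjusted p = 0.324) at 6 weeks and 0.20 (95% interval -0.17 to 0.56, adjusted p = 0.639) at 10 weeks. Every 6-week recovery mouse lay above every 4-week mouse, and the rise between them was called, with a log2 difference of 1.124 ± 0.203 (SE), adjusted p = 4.03e-05.

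Sod2, the manganese superoxide dismutase of mitochondria, stayed near its saline level. Its mean was 1066 ± 70.2 (SD, n = 10) in saline, 1078 ± 121 (SD, n = 10) at 2 weeks and 1013 ± 64 (SD, n = 10) at 4 weeks. The differences were 0.01 (95% interval -0.11 to 0.13, adjusted p = 0.914) and -0.07 (95% interval -0.20 to 0.05, adjusted p = 0.366), both intervals lying within 1.5 fold of saline. Means in recovery were 1156 ± 52.6 (SD, n = 6) at 6 weeks and 1217 ± 173 (SD, n = 8) at 10 weeks, with differences of 0.12 (95% interval -0.02 to 0.26, adjusted p = 0.304) and 0.18 (95% interval 0.05 to 0.31, adjusted p = 0.0917). At 10 weeks 4 of 8 mice lay above every saline mouse and 1 below, and the difference passed by DESeq2 at 0.19 (adjusted p = 0.0471) and without 10-week mouse 8 at 0.23 (adjusted p = 0.0233).

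Counted over the 10 genes, 4 were called at 2 weeks (Nqo1 higher, and Gclc, Gpx3 and Sod3 lower), where 16.7% of the 17037 genes tested were called. With no fold threshold 6 of 10 passed, beside 35.6% of all genes, 1 of them higher (17.4% of all genes) and 5 lower (18.2%). At 4 weeks 3 were called (Nqo1 higher, Gpx3 and Sod3 lower), beside 17.9% of all genes. At that time 7 of 10 passed the adjusted p (36.6% of all genes), 1 higher (18.4%) and 6 lower (18.2%). By edgeR and by DESeq2 the 4-week numbers were 4 called, with Gclc added, and 8 past the adjusted p, with Hmox1 added. The median log2 difference of the 10 genes was -0.22 at 2 weeks and -0.31 at 4 weeks, while the median of all genes tested was 0.0025 and -0.0006.

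In recovery fewer of the genes differed from saline. At 6 weeks 1 gene was called, Blmh, beside 5.04% of all genes. A further 2 passed without the fold threshold, Nqo1 higher and Txnrd1 lower, which made 3 of 10 beside 9.08% of all genes, with 1 higher (5.0%) and 2 lower (4.09%). At 10 weeks 0 were called by limma, edgeR or DESeq2, beside 3.05% of all genes by limma. An unadjusted p below 0.05 was found for 5 of the 10, a rule for which no share of all genes is given. Blmh lower and Nqo1 higher passed the adjusted p, 2 of 10 beside 5.83% of all genes, 3.54% for higher and 2.3% for lower. The 4 comparisons share the saline mice. The median of the 10 genes was -0.30 at 6 weeks and -0.06 at 10 weeks, beside -0.0023 and 0.0007 over all genes.

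**Figure D2:**
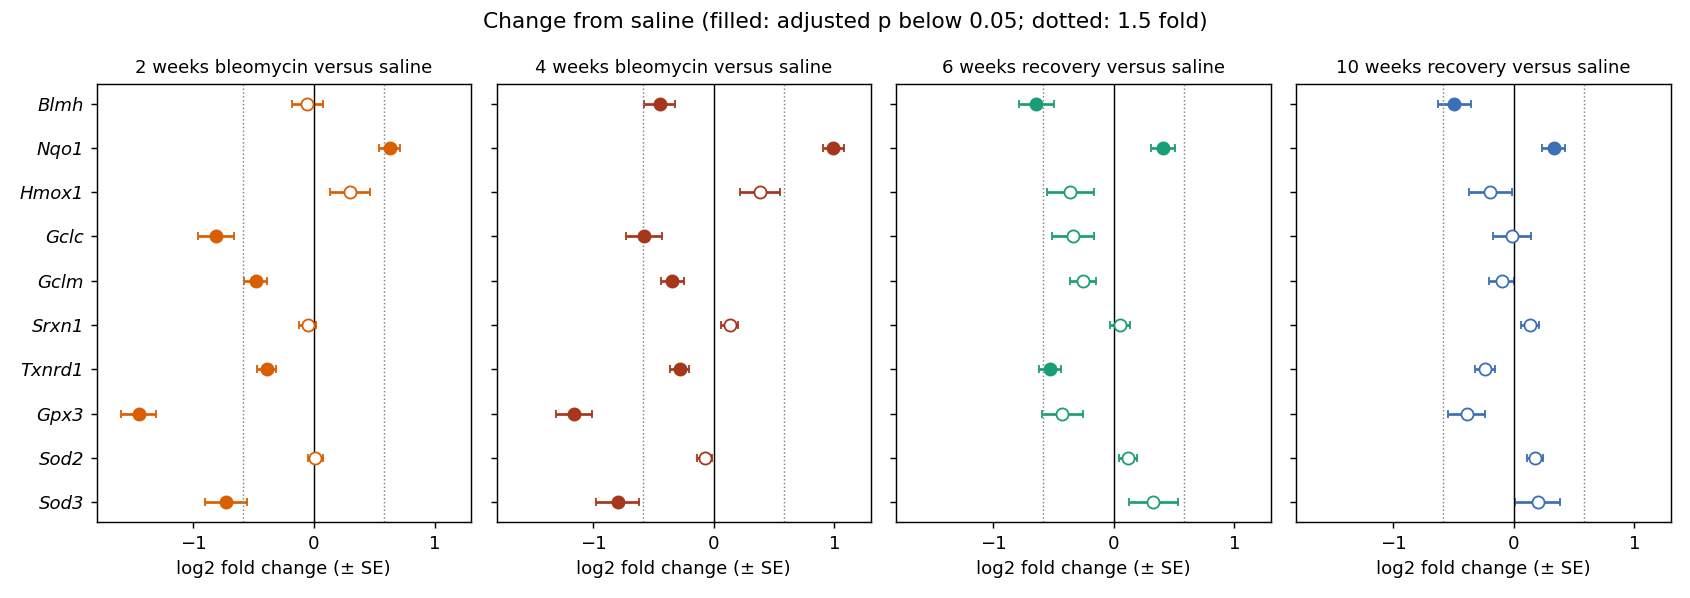
Log2 difference from saline of each gene with its standard error in 4 comparisons, filled where the adjusted p is below 0.05, with dotted lines at 1.5 fold. Nqo1 is to the right of 0 in all 4 panels, Gpx3 lies farthest to the left during treatment, and Blmh moves left from 4 weeks on.

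Between the treated groups the difference in Nqo1 was the only one to pass. Its log2 difference between 4 and 2 weeks was 0.36 ± 0.09 (SE), adjusted p = 0.00908, with all 10 of the 4-week mice above the 2-week median and 5 above every 2-week mouse. That made 0 of 10 genes called by limma, edgeR or DESeq2 (2.35% of all genes by limma) and 1 past the adjusted p (5.61%). An unadjusted p below 0.05 was found for 3, with no share of all genes given for that rule. Blmh was -0.39 ± 0.13 (SE), adjusted p = 0.0567, and it passed by edgeR at -0.46 (adjusted p = 0.027) and by DESeq2 at -0.46 (adjusted p = 0.0128). Without saline mouse 1, 2-week mouse 3, 9 or 10, or 4-week mouse 1, Blmh also passed, with adjusted p between 0.0148 (2-week mouse 9) and 0.0438 (saline mouse 1).

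From 4 weeks of treatment to 6 weeks of recovery, 3 of the 10 genes were called: Sod3 and Gpx3 rose and Hmox1 fell, beside 11.9% of all genes called. Gpx3 rose by 0.73 ± 0.17 (SE), adjusted p = 0.00112, on the log2 scale. Nqo1 fell with a difference of -0.58 ± 0.10 (SE), adjusted p = 1.98e-05, just under 1.5 fold. By edgeR (-0.593, adjusted p = 1.47e-05) and by DESeq2 (-0.585, adjusted p = 7.53e-08) Nqo1 was just past 1.5 fold, which made 4 called in each. Leaving out single mice changed its limma call in 7 of 44 fits. For each of these 4 genes the 2 groups did not overlap, and no share of all genes without overlap is given to set beside this. Sod2 rose at 0.19 ± 0.07 (SE), adjusted p = 0.041, and Txnrd1 fell at -0.24 ± 0.09 (SE), adjusted p = 0.0474, which brought the number past the adjusted p to 6 of 10 beside 25.0% of all genes. Both of the last lay near the threshold, and by edgeR the adjusted p was 0.0516 for Sod2 and 0.0531 for Txnrd1. Leaving out single mice ended the pass of Txnrd1 in 24 of 44 fits and that of Sod2 in 10. Between 10 and 6 weeks of recovery 0 of 10 genes were called and 0 passed the adjusted p by limma, edgeR or DESeq2, beside 0.088% and 0.0939% of all genes by limma. In each tool 1 gene, Txnrd1 in limma (p = 0.0046 in its moderated test, adjusted p = 0.245), had an unadjusted p below 0.05. No share of all genes is given for that unadjusted rule.

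The 5 genes that fell at both 2 and 4 weeks formed 2 sets by their correlation pooled over the 44 mice. In the first set, after group means were taken off, the log2 values of Gclc and Txnrd1 had a Pearson r of 0.82 over the 44 mice, Gclc and Gclm of 0.81, and Gclm and Txnrd1 of 0.70. In the second, Gpx3 and Sod3 had an r of 0.57. Between the sets every r was negative, at -0.54 for Txnrd1 and Sod3, -0.49 for Gclc and Sod3, -0.39 for Gclm and Sod3, -0.39 for Gclm and Gpx3, -0.35 for Txnrd1 and Gpx3 and -0.22 for Gclc and Gpx3. Blmh, which fell at 4 weeks, was also negatively related to Sod3 (-0.51) and Gpx3 (-0.42). Nqo1 was negatively related to Gclc (-0.26), Gclm (-0.30) and Hmox1 (-0.47). These values are descriptions pooled over mice of 5 groups and carry no test. Saline mouse 1 had the highest Gclc, Gclm and Txnrd1 of its group and the lowest Gpx3 and Sod3. The negative relation did not hold for every gene in every group. At 6 weeks of recovery mouse 4 had the highest Gclc, Gclm and Txnrd1 of its group and also the highest Gpx3.

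Keratins of the hair shaft and inner root sheath moved with the first of these sets. All 12 of the 12 measured keratins in the hair follicle list were called lower at 2 and at 4 weeks, where 16.7% and 17.9% of all genes were called. Their summed normalized count ranged from 2244 to 256934 in saline (median 44744), from 39.3 to 2092 at 2 weeks (median 54.1) and from 43.3 to 5858 at 4 weeks (median 67.5). In recovery it ranged from 114 to 121064 at 6 weeks (median 12399) and from 1441 to 197045 at 10 weeks (median 109165), and 0 of the 12 were at 0 in all mice of a group. Saline mouse 1 had the highest sum of the 44 mice together with the highest Gclc, Gclm and Txnrd1.

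Within groups, the hair sum and the level of Gclc were positively related, with r = 0.71 over 44 mice on the log2 scale after group means were taken off (permutation p = 1e-05, the smallest that 100000 permutations within groups can give, and 0.000183 adjusted over 110 gene and list pairs, Spearman rho 0.78, adjusted permutation p = 0.000183). Leaving out the pair of mice farthest from the median hair sum gave r = 0.74. In the separate groups r was 0.82 in saline, 0.30 at 2 weeks, 0.84 at 4 weeks, 0.68 at 6 weeks and 0.94 at 10 weeks of recovery. For Txnrd1 r was 0.61 (permutation p = 1e-05, adjusted permutation p = 0.000183, rho 0.62, adjusted permutation p = 0.000183, 0.61 without the 2 farthest mice), with 0.69, 0.30, 0.22, 0.82 and 0.87 in the 5 groups in the same order. For Gclm r was 0.51 (permutation p = 0.00129, adjusted permutation p = 0.00747, rho 0.48, adjusted permutation p = 0.0221, 0.60 without the 2 farthest mice), with 0.51, 0.22, 0.31, 0.44 and 0.85. The 2 saline mice with the lowest hair sums, 2244 and 4134, had Gclc at 392 and 424. The treated mice with the highest sums were 2-week mouse 8 at 2092, with Gclc at 354, and 4-week mice 3 and 8 at 5858 and 3030.3, with Gclc at 462 and 407. For Nqo1 r with the hair sum was -0.12 (permutation p = 0.448, adjusted permutation p = 0.586, rho -0.06, adjusted permutation p = 0.825, -0.10 without the 2 farthest mice), and the separate groups gave -0.72, 0.30, 0.69, -0.85 and -0.30.

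Gclc was related about as closely, and in the negative direction, to the T cell list, with r = -0.74 (permutation p = 1e-05, adjusted permutation p = 0.000183, rho -0.73, adjusted permutation p = 0.000183, -0.63 without the 2 farthest mice). This relation had the same sign in every group, at -0.84 in saline, -0.85 at 2 weeks, -0.75 at 4 weeks, -0.88 at 6 weeks and -0.65 at 10 weeks of recovery. For Txnrd1 r with T cell markers was -0.62 (permutation p = 6e-05, adjusted permutation p = 0.000943, rho -0.52, adjusted permutation p = 0.00782, -0.48 without the 2 farthest mice), and for Gclm it was -0.49 (permutation p = 0.00124, adjusted permutation p = 0.00747, rho -0.44, adjusted permutation p = 0.0274, -0.33 without the 2 farthest mice). T cell sums ranged from 211 to 699.5 in saline (median 383). They ranged from 392 to 1059 at 2 weeks (median 547) and from 355.5 to 582 at 4 weeks (median 462). Of the 5 T cell genes 1 was called higher at 2 weeks, beside 16.7% of all genes, and 0 at 4 weeks, beside 17.9%. By edgeR the T cell counts were 2 and 0.

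Further lists passed by both coefficients for these 3 genes, all with negative r. For Gclc they were the epidermis at -0.55 (permutation p = 0.00089, adjusted permutation p = 0.00653, rho -0.41, adjusted permutation p = 0.0347, -0.42 without the 2 farthest mice), macrophages at -0.53 (permutation p = 0.00067, adjusted permutation p = 0.00567, rho -0.46, adjusted permutation p = 0.0245, -0.40 without them) and neutrophils at -0.41 (permutation p = 8e-05, adjusted permutation p = 0.0011, rho -0.41, adjusted permutation p = 0.0245, -0.36 without them). The epidermal value differed widely between groups, from -0.95 in saline to 0.17 at 4 weeks. For Gclm macrophages passed, at -0.51 (permutation p = 0.00063, adjusted permutation p = 0.00567, rho -0.44, adjusted permutation p = 0.0312, -0.38 without them), and for Txnrd1 blood vessels, at -0.49 (permutation p = 0.00126, adjusted permutation p = 0.00747, rho -0.42, adjusted permutation p = 0.0334, -0.35 without them). The part of hair follicle content or of any of these cell types in the lower Gclc, Gclm and Txnrd1 of treated skin was not tested.

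**Figure D3:**
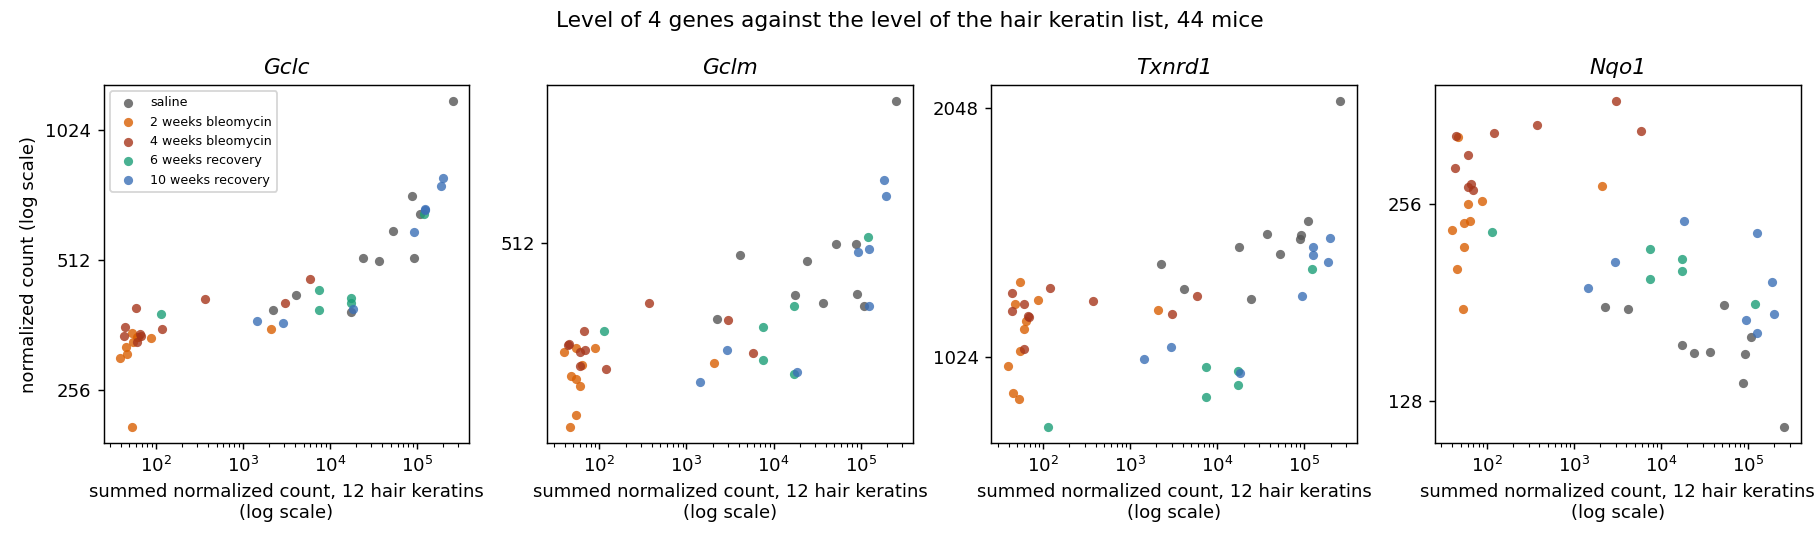
Normalized count of Gclc, Gclm, Txnrd1 and Nqo1 against the summed normalized count of 12 hair keratins in each of the 44 mice, log scales on both axes, coloured by group. Gclc climbs with the keratin sum across the recovery and saline mice and its highest point is saline mouse 1, whereas the highest Nqo1 values belong to the 4-week mice over their whole span of keratin sums.

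Among the other genes, Sod3, Gpx3 and Blmh each moved with some marker lists by both coefficients, and Nqo1, Hmox1, Srxn1 and Sod2 with none. For Sod3 r with the blood vessel list was 0.73 (permutation p = 1e-05, adjusted permutation p = 0.000183, rho 0.70, adjusted permutation p = 0.000183, 0.64 without the 2 farthest mice), with 0.82, 0.85, 0.74, 0.10 and 0.46 in the 5 groups. It was also related to the fibroblast list, at r = 0.59 (permutation p = 0.00012, adjusted permutation p = 0.00147, rho 0.56, adjusted permutation p = 0.00481, 0.65 without the 2 farthest mice), with 0.68, 0.54, 0.63, 0.53 and 0.69 in the groups. The fibroblast list had 4 of 7 genes called lower at 2 weeks (57.1%, beside 16.7% of all genes) and 2 at 4 weeks (28.6%, beside 17.9%). The median log2 difference of the fibroblast list was -0.71 at 2 weeks but -0.02 at 4 weeks. Its median sum was 143954 in saline, 98593 at 2 weeks and 147940 at 4 weeks. Its summed count was 100565 to 232342 in saline, 50198 to 175614 at 2 weeks and 84708 to 228111 at 4 weeks. The blood vessel list went the other way from Sod3 between groups, with 2 of 6 genes called higher at both times (33.3%, beside 16.7% and 17.9% of all genes). Its sums were 1341 to 2682 in saline, 1582 to 4140.4 at 2 weeks and 2423 to 3379 at 4 weeks. Skeletal muscle at r = 0.54 (permutation p = 0.00195, adjusted permutation p = 0.0107, rho 0.43, adjusted permutation p = 0.0334, 0.33 without the 2 farthest mice) and T cells at r = 0.45 (permutation p = 0.0115, adjusted permutation p = 0.0422, rho 0.44, adjusted permutation p = 0.0334, 0.30 without the 2 farthest mice) also passed for Sod3. None of these markers was at 0 throughout a group, and their part in the fall of Sod3 was not tested.

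For Gpx3 r with the fat cell list was 0.55 (permutation p = 0.00041, adjusted permutation p = 0.0041, rho 0.44, adjusted permutation p = 0.0334, 0.42 without the 2 farthest mice), with 0.88 in saline, 0.68 at 2 weeks, -0.01 at 4 weeks, -0.51 at 6 weeks and 0.63 at 10 weeks of recovery. The fat cell list had 4 of 8 genes called lower at 2 and at 4 weeks (2 at 2 weeks by edgeR), and its sum ranged from 17620.1 to 33864 in saline, 11577 to 29327 at 2 weeks and 14554 to 24394 at 4 weeks. The blood vessel list, with 2 of 6 genes called higher at both times (33.3%, beside 16.7% and 17.9% of all genes), was about as closely related to Gpx3, at r = 0.57 (permutation p = 0.00077, adjusted permutation p = 0.00605, rho 0.47, adjusted permutation p = 0.0274, 0.44 without the 2 farthest mice), with 0.82, 0.57, 0.10, -0.25 and 0.68 in the 5 groups. Skeletal muscle passed by r alone, at 0.54 (adjusted permutation p = 0.00701, rho 0.36, adjusted permutation p = 0.0961, 0.44 without the 2 farthest mice). Both the fat and the blood vessel relations were near 0 or negative at 4 weeks and at 6 weeks of recovery. The part of any of these lists in the lower Gpx3 was not tested.

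For Blmh, which is active in the epidermis, r with the epidermal list was 0.34 (permutation p = 0.0555, adjusted permutation p = 0.117, rho 0.47, adjusted permutation p = 0.0271, 0.46 without the 2 farthest mice). The groups disagreed, with 0.82 and 0.83 at 2 and 4 weeks, 0.45 at 6 weeks, and -0.25 and -0.29 in saline and at 10 weeks. The negative relation with skeletal muscle was steadier, at r = -0.70 (permutation p = 1e-05, adjusted permutation p = 0.000183, rho -0.73, adjusted permutation p = 0.000183, -0.70 without the 2 farthest mice), with -0.74, -0.79, -0.66, -0.68 and -0.90 in the groups. Muscle list sums ranged from 76869 to 253428 in saline, 139702 to 233719 at 4 weeks, 178033 to 318492 at 6 weeks and 171584 to 360133 at 10 weeks of recovery. Of the 8 muscle genes 2 were called higher at each of these 3 times (25.0%, beside 17.9%, 5.04% and 3.05% of all genes), but the median sum at 4 weeks, 186692, was below that of saline, 208957. The median log2 difference of the list was 0.08 at 4 weeks, 0.26 at 6 weeks and 0.29 at 10 weeks of recovery. Blmh was also negatively related to the fibroblast list, at r = -0.69 (permutation p = 1e-05, adjusted permutation p = 0.000183, rho -0.60, adjusted permutation p = 0.0011, -0.55 without the 2 farthest mice), with -0.80, -0.86, 0.09, -0.65 and -0.77 in the groups. With the blood vessel list r was -0.64 (permutation p = 0.00034, adjusted permutation p = 0.00374, rho -0.72, adjusted permutation p = 0.000183, -0.68 without the 2 farthest mice), with -0.86, -0.60, -0.26, -0.66 and -0.63. Blood vessel sums were 2748 to 3641 at 6 weeks of recovery, all above the saline range of 1341 to 2682, with 3 of 6 genes called higher at that time and 0 of 6 at 10 weeks. Fibroblast sums at 6 weeks were 150830 to 243800, with 1 of 7 genes called lower (14.3%, beside 5.04% of all genes). The median fibroblast sum was nevertheless higher at 6 weeks, 195577, than in saline, 143954. The median log2 difference of the fibroblast list was 0.39 at 6 weeks and -0.45 at 10 weeks of recovery. Epidermal sums were 136972 to 266467 in saline, 190494 to 254226 at 4 weeks and 200136 to 262964 at 6 weeks of recovery. Of the 8 epidermal genes 1 was called lower at 4 weeks (12.5%, beside 17.9% of all genes) and 0 at 6 weeks (beside 5.04%). The part of muscle, fibroblasts, blood vessels or epidermis in the lower Blmh was not tested.

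For Hmox1 no list was related by both coefficients. The sebaceous gland list passed by r alone, at -0.41 (adjusted permutation p = 0.0188, rho -0.26, adjusted permutation p = 0.214). So did skeletal muscle, at -0.38 (adjusted permutation p = 0.027, rho -0.33, adjusted permutation p = 0.124). Macrophage markers, 6 of 8 of which were called higher at 2 and at 4 weeks, gave r = 0.12 (permutation p = 0.443, adjusted permutation p = 0.586, rho 0.16, adjusted permutation p = 0.471, 0.20 without the 2 farthest mice), with -0.01, 0.64, -0.05, -0.19 and -0.49 in the groups. Their sums ranged from 8186 to 21943 in saline, 20969 to 39651 at 2 weeks and 19375 to 36778 at 4 weeks. Among the 110 gene and list pairs, 30 had an adjusted permutation p below 0.05 by Pearson's r and 20 by both coefficients, the latter in 6 of the 10 genes.

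**Figure D4:**
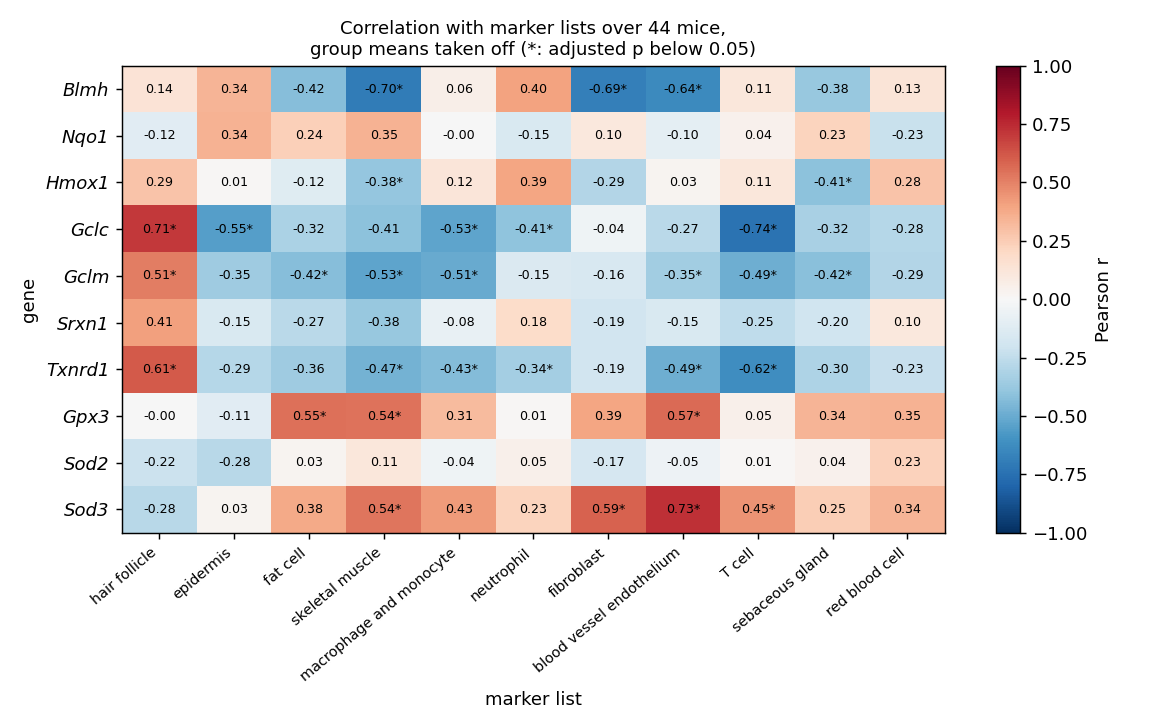
Pearson r between each of the 10 genes (rows) and the log2 summed count of each of 11 marker lists (columns) over 44 mice with group means taken off, red for positive and blue for negative, with a star where the adjusted permutation p is below 0.05. Gclc, Gclm and Txnrd1 share a positive hair follicle column, 0.71, 0.51 and 0.61, and a negative T cell column, while the Nqo1, Srxn1 and Sod2 rows carry no star.

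The other genes of the pathway were counted in 7 lists, each beside the share of all genes tested that were called, which was 16.7% at 2 weeks, 17.9% at 4 weeks, 5.04% at 6 weeks and 3.05% at 10 weeks of recovery. Of 11 regulators of NRF2, a list which holds Nfe2l2, Keap1, Bach1 and the small MAF genes, only Trim21 was called at 2 and 4 weeks (9.09% of the list, beside 16.7% and 17.9%), and 0 were called in recovery by limma or edgeR. Trim21, an interferon-induced ubiquitin ligase, was at 296 ± 49.5 (SD, n = 10) normalized counts at 2 weeks and ranged from 114 to 212 in saline with a mean of 167, with no overlap. Its log2 differences were 0.82 ± 0.10 (SE), adjusted p = 3.33e-09, and 0.65 ± 0.10 (SE), adjusted p = 5.44e-07. The median difference of the list was 0.11 at 2 weeks and 0.14 at 4 weeks.

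Among 24 genes of glutathione synthesis and conjugation, 2 were called higher and 4 lower at 2 weeks (25.0% of the list, beside 16.7% of all genes), and 3 higher and 2 lower at 4 weeks (20.8%, beside 17.9%). Gsto1, an omega-class glutathione transferase, was higher at 0.79 ± 0.10 (SE), adjusted p = 1.58e-08, and at 1.05 ± 0.10 (SE), adjusted p = 8.6e-12, and its 4-week range of 994 to 1326 lay wholly above the saline range of 433 to 727. Ggt1, which cleaves extracellular glutathione, was at 125 ± 159 (SD, n = 10) normalized counts in saline and at 4.89 ± 4.38 (SD, n = 10) at 2 weeks, with log2 differences of -3.88 ± 0.70 (SE), adjusted p = 2.01e-05, and -4.04 ± 0.70 (SE), adjusted p = 1.05e-05, and its lowest saline mouse was at 9.13. The transferases Gsta4 (0.78, adjusted p = 0.0197) and Gsta3 (-1.14, adjusted p = 0.00905) differed in direction at 2 weeks. At 4 weeks Gsta1 was higher (0.81, adjusted p = 0.000874) and Ggt5 lower (-1.01, adjusted p = 1.75e-05). In recovery the only gene of this list called was Gsta1 at 10 weeks, now lower (-0.65, adjusted p = 0.0491), and edgeR called 2.

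The 22 tested peroxidase and thioredoxin genes gave 3 higher and 1 lower at 2 weeks (18.2% of the list, beside 16.7% of all genes) and 1 higher at 4 weeks (4.55%, beside 17.9%). Glrx, glutaredoxin, was at 1433 ± 546 (SD, n = 10) at 2 weeks and 774 ± 171 (SD, n = 10) in saline, a log2 difference of 0.83 (adjusted p = 8.41e-06), and 0.64 (adjusted p = 0.000342) at 4 weeks. Msrb1, a methionine sulfoxide reductase, was higher at 2 weeks (0.62, adjusted p = 6.47e-07), and Gpx2 was lower (-0.83, adjusted p = 0.0294). Of 7 enzymes that supply NADPH, 1 was called at 2 weeks (14.3%, beside 16.7%) and 2 at 4 weeks (28.6%, beside 17.9%). These were Tkt, lower at 2 weeks (-0.62, adjusted p = 1.69e-06), and Me1 (-0.70, adjusted p = 9.97e-07) and Idh1 (-0.60, adjusted p = 5.18e-10), lower at 4 weeks. The 4-week range of Idh1, 1129 to 1433, did not overlap its saline range of 1722 to 2332.

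In the list of 16 quinone, aldehyde and xenobiotic enzymes, 2 were called higher and 2 lower at 2 weeks (25.0%, beside 16.7% of all genes), and 2 higher and 1 lower at 4 weeks (18.8%, beside 17.9%). Akr1b8, an aldo-keto reductase, and Ephx1, the microsomal epoxide hydrolase, rose like Nqo1, from 149 ± 31.9 (SD, n = 10) to 292 ± 34.2 (SD, n = 10) and from 1084 ± 154 (SD, n = 10) to 2098 ± 215 (SD, n = 10) at 4 weeks, with no overlap in either. Their log2 differences were 0.70 and 0.64 at 2 weeks (adjusted p = 5.48e-07 and 2.97e-06) and 0.99 and 0.96 at 4 weeks (adjusted p = 1.98e-10 and 4.55e-10). Ces1d, a carboxylesterase abundant in fat, was lower at -1.30 (adjusted p = 3.12e-08) and -1.53 (adjusted p = 6.44e-10). Osgin1 was lower at 2 weeks (-0.75, adjusted p = 0.000112). Of the 14 heme and iron genes, 3 were called higher and 2 lower at 2 weeks (35.7%, beside 16.7% of all genes, and 5 and 2 by edgeR), and 3 higher and 1 lower at 4 weeks (28.6%, beside 17.9%). Haptoglobin, Hp, which binds free hemoglobin, was at 2226 ± 724 (SD, n = 10) in saline and 6942 ± 2768 (SD, n = 10) at 2 weeks, a log2 difference of 1.58 (adjusted p = 2.87e-08), and 1.76 (adjusted p = 2.38e-09) at 4 weeks. Hpx, hemopexin, was higher at 2 weeks (1.82, adjusted p = 0.00015), and Ftl1, ferritin light chain, at 4 weeks (0.72, adjusted p = 0.00147). Slc40a1 (-0.82, adjusted p = 0.012) and Mt2 (-0.71, adjusted p = 0.00505) were lower at 2 weeks, and Tfrc, the transferrin receptor, at 4 weeks (-0.71, adjusted p = 1.67e-06).

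Of 15 tested genes of oxidant-producing enzymes, 6 were called higher and 2 lower at 2 weeks (53.3% of the list, beside 16.7% of all genes), and 6 higher and 1 lower at 4 weeks (46.7%, beside 17.9%). Cybb and Ncf1, parts of the phagocyte NADPH oxidase, had log2 differences of 2.02 ± 0.18 (SE), adjusted p = 1.04e-12, and 1.64 ± 0.15 (SE), adjusted p = 8.85e-12, at 2 weeks. At 4 weeks they stood at 1.52 for Cybb (adjusted p = 2.38e-09) and 1.33 for Ncf1 (adjusted p = 2.02e-09), and neither gene overlapped its saline range at either time. Both are leukocyte genes, and 6 of 8 macrophage and 5 of 7 neutrophil markers were called higher at 2 weeks. Their part in these values was not tested. Nox4, the oxidase of fibroblasts and other tissue cells, went from 69.7 ± 26.2 (SD, n = 10) in saline to 28.6 ± 11.5 (SD, n = 10) at 2 weeks (log2 difference -1.29, adjusted p = 5.19e-06), and was still lower at 4 weeks (-0.59, adjusted p = 0.0287). At 6 weeks of recovery it was higher than in saline, at 131 ± 33.1 (SD, n = 6), with a difference of 0.95 (adjusted p = 0.0106). Duox1 was lower at 2 weeks (-0.74, adjusted p = 2.41e-05), and Nos2 was higher at 6 weeks of recovery (0.87, adjusted p = 0.0162), with 0 of 15 called at 10 weeks by limma or edgeR.

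**Figure D5:**
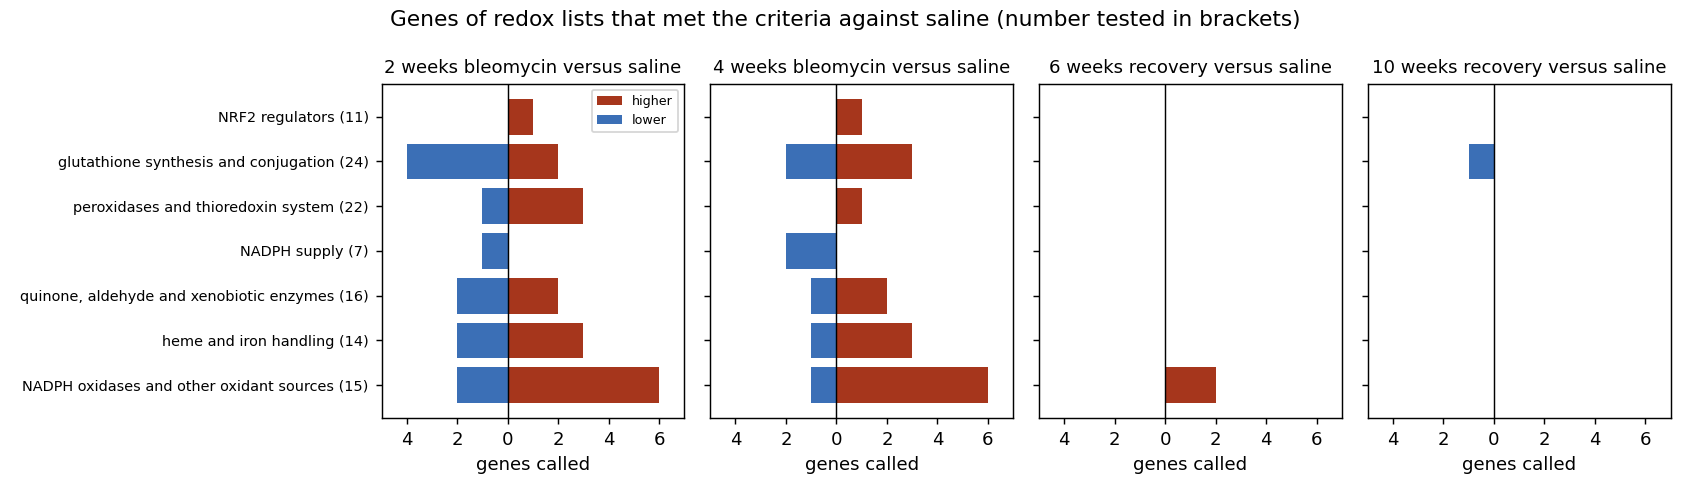
Number of genes in each of 7 redox lists called higher (red, to the right) or lower (blue, to the left) than saline in 4 comparisons, with the number tested in brackets. Over all genes tested, 16.7%, 17.9%, 5.04% and 3.05% were called in these comparisons. The oxidant sources hold 6 higher at 2 and at 4 weeks, and in recovery only 3 calls are left over all lists, 2 of them in the oxidant sources at 6 weeks.

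The genes most like each of the 10 were sought among 13516 genes with a mean normalized count above 30, by Pearson r over the 44 mice after group means were taken off. Gclc was closest to Gja1 (0.92), Fzd5 (0.92) and Hoxc13 (0.91), and Txnrd1 to Sp6 (0.90), Gm14137 (0.89) and Otub2 (0.86). Sod3 was closest to Acvrl1 (0.89), Arsa (0.89) and Man2b2 (0.89), and Blmh to Nhp2 (0.87), S100a14 (0.85) and Prelid3b (0.84). Sod2 was closest to Ndufa9 (0.83), Ndufs8 (0.75) and Pdhb (0.74), and Gclm to Minpp1 (0.82), Mybl2 (0.82) and Pik3r3 (0.82). Hmox1 was closest to Ctsd (0.78), Vps16 (0.78) and Zfp36 (0.78), and Gpx3 to Zcchc24 (0.73), Gas6 (0.70) and Vtn (0.70). Nqo1 and Srxn1 had the weakest likeness, with Zfp97 (0.70), Pdp1 (0.70) and Gnai1 (0.69) for Nqo1 and Atp13a4 (0.67), Endou (0.65) and Ero1l (0.65) for Srxn1.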

How the data were processed

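Skin RNA of 44 mice was sequenced as 50 bp paired reads from stranded mRNA libraries. Per the study's methods and the submitters' processing notes, the authors aligned reads to mm10 with STAR 2.4.0. Gene counts were scaled by the authors with DESeq2 1.12.3, using a size factor for each mouse, and this signal (normalized counts) was deposited. The counter, its use of strand and its annotation are not given in the sources used here. Whole reads were recovered from the steps between values, and in every mouse 100.0% of values were whole within a tolerance of 0.1 reads. Symbols were matched for 42929 of 43411 genes.

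Genes with a mean above 3 were tested with limma 3.58.1 (mean-variance trend, R 4.3.3) on log2(normalized count + 1), 5 groups in 1 fit, with Benjamini-Hochberg adjustment over 17037 genes. Recovered counts were tested with edgeR 4.0.16 and DESeq2 1.42.0 as alternatives. The scripts were tested on simulated data. The alternatives were another pseudocount (0.1), no filter, TMM scaling, only the groups compared, a replicate block, 42 mice (without saline mouse 1 and 2-week mouse 2), and each mouse left out. No pair of group mates agreed within sampling noise (smallest chi-square per gene 5.31 over 178 pairs).

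The 10 genes and all lists were chosen with earlier results of these data known. Of each redox list, up to 2 genes with the largest rise and 2 with the largest fall among those called were named per comparison with saline, and the 3 genes most like each of the 10. Krt85 and Tchh of the hair list were not used. Correlations used 100000 two-sided permutations of mice within groups. The 95% intervals come from the standard errors. P-values measure the spread between mice of 1 study.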

Additional observations from a re-analysis of the deposited data

Results flagged for a closer look

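In 11 of the 50 sets of mice examined (10 genes in 5 groups), 1 mouse lay farther from its group mates than a gap test at the 95% level allows. For separate sets of evenly spread values chance would give about 1 set in 20 (5%). That share is no measure for the 11 sets. The test used normalized counts without the log2 scale, on which high values stand out more. The 10 genes were also measured in the same mice and several moved together, so 1 mouse can be counted for several genes. Saline mouse 1 was the highest of its group for Gclc (1191.1 normalized counts), Gclm (776.2) and Txnrd1 (2087.7). The 2-week mouse 2 was the highest for Hmox1 (3166.9) and the lowest for Gclc (210.7). The 6-week recovery mouse 4 was the highest for Gclc (652.8), Srxn1 (591.1) and Txnrd1 (1306.6). The others were 4-week mouse 9 for Hmox1 (2623.9), 4-week mouse 1 for Blmh (1935.2) and 4-week mouse 5, the lowest, for Txnrd1 (1046.6). Saline mouse 1 and 6-week recovery mouse 4 also had the highest hair keratin sums of their groups, 256934 and 121064, and the part of this in their values was not tested.

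Differences between time points passed the limma test for 6 genes. Nqo1 differed by 0.362 (log2) between 4 and 2 weeks of bleomycin. Comparing 6-week recovery with 4-week bleomycin mice, the log2 values were 1.124 for Sod3, 0.733 for Gpx3, 0.192 for Sod2, -0.244 for Txnrd1, -0.579 for Nqo1 and -0.745 for Hmox1. Those of Sod2 and Txnrd1 were lost under several settings.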

How the results depend on the processing

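Of the 70 log2 differences (10 genes in 7 comparisons), all 70 kept their side of the adjusted p threshold with a pseudocount of 0.1 and with TMM scaling. The number that did so was 68 without the filter, 66 by edgeR, 66 by DESeq2, 68 with only the groups compared in the fit, 67 with the replicate block and 66 with 42 mice. Of 3080 values with 1 mouse left out, 39 lost and 9 gained a pass, and all others kept their side. Among those others, Srxn1 at 6 weeks of recovery turned to -0.04 without 6-week recovery mouse 4, with no pass either way. No passing difference turned direction.

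The number of the 10 genes past the adjusted p at 10 weeks of recovery, 2 in the report, was 1 with only the groups compared, where Nqo1 reached 0.0661, and 4 with 42 mice, where Gpx3 (-0.50, adjusted p = 0.0236) and Sod2 (0.20, adjusted p = 0.0284) were added. With 42 mice Gpx3 also passed at 6 weeks of recovery (-0.53, adjusted p = 0.0242) and Hmox1 at 4 weeks (0.42, adjusted p = 0.0119). Between 4 and 2 weeks the number was 2 by edgeR, by DESeq2 and with the replicate block, in place of 1, with Blmh added. The cause was not tested.

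With 1 mouse left out the number called ranged from 3 to 4 at 2 weeks, 3 to 4 at 4 weeks, 1 to 2 at 6 weeks of recovery and 3 to 4 between 6 weeks of recovery and 4 weeks, and was 0 to 0 in the other 3 comparisons. The 2 at 6 weeks arose without 6-week recovery mouse 4, and the 3 at 2 weeks without saline mouse 1 or 2-week mouse 7, when Nqo1 fell under 1.5 fold. The number past the adjusted p ranged from 6 to 6 at 2 weeks, 7 to 8 at 4 weeks, 3 to 4 at 6 weeks and 0 to 3 at 10 weeks of recovery, 1 to 2 between 4 and 2 weeks, 4 to 6 between 6 weeks of recovery and 4 weeks, and 0 to 0 between 10 and 6 weeks. The 0 arose without 10-week mouse 7.

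Replicate numbers are shared between groups but name different mice. Mice with the same number deviated together (r above 0.1) in 1 of 10, 3 of 10, 1 of 6 and 1 of 8 pairs in the 4 comparisons with saline and in 4 of 10, 2 of 6 and 2 of 6 in the others, with r from -0.69 to 0.38. No steady link by number was seen, but the pairs are too few to settle whether the numbers hold one. The replicate block moved the count of passing genes to 2 between 4 and 2 weeks, with Blmh at -0.39 (adjusted p = 0.0285), and ended the passes of Txnrd1 (adjusted p = 0.0606) and Sod2 (adjusted p = 0.0923) between 6 weeks of recovery and 4 weeks.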
